A study of Mus musculus with 2 samples.

Results

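The receptors for the colony-stimulating factors were followed in macrophages sorted from the small intestine of wild-type and Ccr2-/- mice. The members are the 5 listed genes Csf1r, Csf2ra, Csf2rb, Csf2rb2 and Csf3r, out of 27998 genes in the count tables, and were chosen by name. Their transcripts were counted as unique molecular identifiers (UMIs), tags that mark each captured RNA molecule, with the 10x Genomics 3′ v2 droplet chemistry. There were 2 libraries, 1 per genotype, each made from the pooled intestines of 3 to 4 animals. The sort kept live CD45+ CD11b+ MHCII+ CD64+ cells and removed cells stained for CD3, TCRb, B220, SiglecF, Ly6C or Ly6G. The wild-type (WT) animals were male C57BL/6J mice bought from Janvier, and their cells were run on 2 lanes. The Ccr2-/- animals came from a JAX strain bred in-house and their sex is not stated, so genotype and breeder cannot be told apart. No treatment and no age is given for either group. The gate leaves out cells with surface Ly6C, a protein of classical monocytes, in both groups.

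CSF1R is the receptor tyrosine kinase for CSF1 and IL-34, and tissue macrophages, those of the gut included, depend on its signal for survival. The GM-CSF receptor pairs a binding chain, CSF2RA, with the common β chain CSF2RB, which also serves IL-3 and IL-5 and signals through JAK2 and STAT5. Mice carry a second β chain gene, Csf2rb2, whose product serves IL-3 alone, and CSF3R is the G-CSF receptor, best known from neutrophils. Ccr2 encodes the chemokine receptor by which monocytes leave the bone marrow and enter tissue, and Timd4 marks long-lived macrophages in several organs.

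The common β chain genes are close copies, and their likeness bears on how far their counts can be kept apart. In GRCm38 with the GENCODE M21 annotation, Csf2rb (ENSMUSG00000071713) lies on chromosome 15 from 78325752 to 78353847 on the plus strand. Csf2rb2 (ENSMUSG00000071714) lies beside it from 78282507 to 78305721 on the minus strand, with 20030 bases between them. Their coding sequences of 2691 and 2637 bases matched at 95.2% of 2631 aligned bases. The last 60 aligned coding bases, positions 2578 to 2637 counted from the first base of each start codon, are shown because they hold both the likeness and the end of the shorter frame. Capitals mark the 5 bases that differ, and the Csf2rb2 stretch ends in its stop codon:
Csf2rb: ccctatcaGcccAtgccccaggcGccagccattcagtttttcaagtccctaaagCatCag
Csf2rb2: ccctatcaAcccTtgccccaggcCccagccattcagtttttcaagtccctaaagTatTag
Of the coding stretches of 31 bases in Csf2rb, 40.5% also occurred in the Csf2rb2 transcript. The 3′ chemistry reads the transcript end, and there only 6 of 470 such stretches in the last 500 bases (1.28%) were shared. Counts of these genes could therefore be told apart at the annotated transcript ends, but a read starting in the coding region may have been divided between them or dropped.

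The other members have no such copy among the 5. Csf1r (ENSMUSG00000024621) lies on chromosome 18 from 61100598 to 61132149 on the plus strand and overlaps Hmgxb3 on the minus strand, which had 7.30 UMIs per 1000000 UMIs (CPM) in the WT library and 11.01 CPM in the Ccr2-/- library. Csf2ra (ENSMUSG00000059326) lies on chromosome 19 from 61223957 to 61228429 on the minus strand. Csf3r (ENSMUSG00000028859) lies on chromosome 4 from 126024550 to 126044440 on the plus strand. All 5 are annotated as protein-coding.

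After removal of cells with fewer than 200 genes or more than 10% mitochondrial UMIs, 3016 of 3054 WT cells and 2612 of 2774 Ccr2-/- cells remained, with 20678108 and 7265386 UMIs. The median was 6129 UMIs per WT cell and 2439 per Ccr2-/- cell, so shares of cells are compared after each cell was thinned at random to 1000 UMIs. That step left out 1 WT and 196 Ccr2-/- cells. The WT lanes shared 5 barcodes with each other, and the libraries shared 6. Ccr2 itself, unthinned, had 6844 UMIs in 43.9% of WT cells and 50 UMIs in 1.15% of Ccr2-/- cells. All 8 macrophage markers (C1qa, C1qb, C1qc, Cd68, Adgre1, Mertk, Fcgr1, Aif1) were detected in both libraries, at a summed level of 14903 CPM in WT and 9909 CPM in Ccr2-/- cells. Clusters called macrophage-like, which met the macrophage markers and had no sign of another type, held 63.0% of WT and 90.5% of Ccr2-/- cells. Cluster 3, of 778 WT and 13 Ccr2-/- cells, also met the macrophage markers. It was set apart because Ccr2 and Lyz1 were among its leading genes. These shares therefore do not measure how far the label of the sort held. Globin UMIs stood at 668 CPM in WT and 6839 CPM in Ccr2-/- cells, and fibroblast markers at 25.7 and 230 CPM. In summed counts, more cells with a transcript and more transcript per cell cannot be told apart. Since each genotype has 1 library, the genotypes were not tested against each other. All intervals are at the 95% level (exact Poisson for levels, exact Clopper-Pearson for shares, exact conditional binomial for ratios) and cover counting error only, not the spread between animals.

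Csf1r was by far the most abundant member and stood higher in the Ccr2-/- library. It gave 18507 UMIs in WT and 11450 in Ccr2-/- cells, and ranked 166 among the 16102 genes with a UMI in WT and 88 among 15773 in Ccr2-/- cells. Because each molecule is counted once at its 3′ end, these levels need no correction for transcript length. WT lane 1 read 884 CPM (869 to 900), WT lane 2 read 920 CPM (896 to 945) and the Ccr2-/- library read 1576 CPM (1547 to 1605). The lanes lay close together and the Ccr2-/- interval was far above both. The ratio of Ccr2-/- to WT was 1.76-fold, or 0.82 on the log2(CPM + 1) scale used for all ratios here (0.78 to 0.85). Intervals of ratios were computed from the counts without the added 1.

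The GM-CSF receptor chains were also higher in Ccr2-/- cells. Csf2ra, the ligand-binding chain, read 112 CPM in lane 1, 110 CPM in lane 2 and 146 CPM (138 to 155) in Ccr2-/- cells, a log2 ratio of 0.39 (0.28 to 0.50). Csf2rb, the shared signalling chain, read 169, 149 and 259 CPM (247 to 271) in the same order, a log2 ratio of 0.67 (0.59 to 0.75). For both genes the Ccr2-/- level was above both lanes by more than counting error. The order of the ratios changed with the cells compared: in cells of 2000 to 4000 UMIs Csf1r was at 0.63 (0.56 to 0.70), Csf2ra at 0.80 (0.55 to 1.07) and Csf2rb at 0.62 (0.45 to 0.81). The lanes themselves differed for Csf2rb, by -0.18 on the log2 scale for lane 2 over lane 1 (-0.29 to -0.07), which is a measure of technical spread within 1 sample.

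The remaining receptors were sparse. Csf2rb2, the IL-3 β chain, read 29.8 CPM in lane 1, 34.4 CPM in lane 2 and 46.4 CPM (41.6 to 51.6) in Ccr2-/- cells, from 644 and 337 UMIs in the libraries. Csf3r, the G-CSF receptor, read 34.7, 31.1 and 41.6 CPM (37.0 to 46.5), from 695 and 302 UMIs. Their log2 ratios of Ccr2-/- to WT were 0.56 (0.38 to 0.77) and 0.30 (0.11 to 0.50). Csf3r had the smallest ratio of the 5, and its Ccr2-/- interval overlapped that of WT lane 1, which reached 37.8 CPM.

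**Figure D1:**
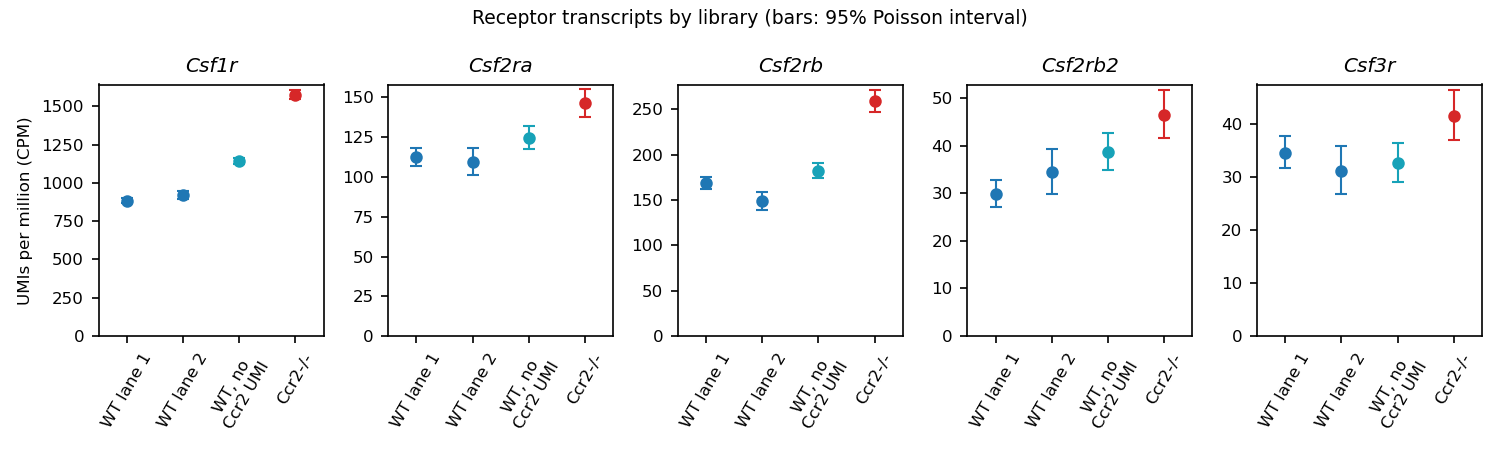
Summed level of each receptor gene in CPM (vertical axes from 0, a scale for each gene) in WT lane 1, WT lane 2, WT cells of both lanes with no Ccr2 UMI, and the Ccr2-/- library; points are levels and bars are 95% Poisson intervals. For Csf1r the lanes read 884 and 920, WT cells without a Ccr2 UMI 1142 and the Ccr2-/- library 1576.

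None of the 5 reached a 2-fold ratio, where 9.04% of the 7401 genes with a mean of at least 10 CPM were higher by 2-fold or more in Ccr2-/- cells and 3.12% were lower. The median log2 ratio of the members was 0.56, and that of all tested genes 0.18. Csf1r stood at percentile 86.3 of all genes and Csf3r at percentile 58.0. With size factors from the median of ratios over genes, which shift the median gene by 0.19, Csf1r kept a log2 ratio of 0.62, and Csf2ra was at 0.20. No member reached 2-fold between the WT lanes, where 0.0428% of 7014 genes were higher in lane 2 and 0.684% lower.

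Detection per cell was compared at equal depth. After thinning, a Csf1r UMI was found in 57.1% of WT cells (55.4 to 58.9) and 74.9% of Ccr2-/- cells; unthinned, in 93.2% and 88.9%. The direction of the unthinned share went against the level in CPM for every member, as the WT cells were deeper. Thinned WT cells held 0.985 Csf1r UMIs on average and Ccr2-/- cells 1.64, and cells with 3 or more made up 9.68% and 24.2%. Thinned shares for Csf2ra were 9.75% in WT and 12.5% in Ccr2-/- cells. For Csf2rb they were 14.9% and 20.2%, and for Csf2rb2 3.35% and 4.39%. For Csf3r they were 3.58% and 4.26%. The intervals of the libraries overlapped for Csf2rb2 and Csf3r and not for the other members. Unthinned, the shares were 45.4% and 29.0% for Csf2ra, 54.1% and 38.2% for Csf2rb, 17.1% and 10.5% for Csf2rb2, and 19.8% and 10.5% for Csf3r.

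Cells that should lack Csf1r were read for comparison, since free RNA in the droplets gives UMIs in any cell. The T cell- and B cell-like clusters held 17 WT cells (median 4173 UMIs) and 37 Ccr2-/- cells (median 2045 UMIs). In them Csf1r read 206 CPM (124 to 321) in WT and 121 CPM (58.2 to 223) in Ccr2-/- cells, with thinned shares of 11.8% and 5.56%. These lay below the levels of the whole libraries. The unnamed cluster led by Jchain and Mzb1 was not part of these sets, and its Csf1r level, given below, read higher than theirs. The WT value came from 19 UMIs in 4 of the 17 cells and the Ccr2-/- value from 10 UMIs in 6 of the 37, and doublets were left in, so it is not an even background. Csf3r had 1 UMI in each of these sets, and its thinned share was 5.88% of the 17 WT cells (0.149 to 28.7), so the Csf3r share of WT cells was not distinguishable from background at this depth. No thinned cell of these sets held a Csf2ra, Csf2rb or Csf2rb2 UMI, which by the limit of 3 counts allows shares of up to 17.6% in WT and 8.33% in Ccr2-/- cells. The WT limit lies above the WT shares of these 3 genes, and the Ccr2-/- limit above that of Csf2rb2 alone, so these cells bound the background only loosely.

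Within the WT library Csf1r was lower in cells with more Ccr2 transcript, step by step. The classes of 0, 1, 2 and 3 or more Ccr2 UMIs held 1692, 322, 168 and 834 cells and are ranges of a count, not cell types. Csf1r read 1142 CPM (1122 to 1164), 939 CPM (897 to 982), 755 CPM (707 to 807) and 578 CPM (561 to 596) in this order, with no overlap of neighbouring intervals. The lanes gave the same order, with 1142, 907, 763 and 575 CPM in lane 1 and 1144, 1011, 733 and 587 CPM in lane 2. Cells with 3 or more Ccr2 UMIs over cells with 0 had a log2 ratio of -0.98 (-1.03 to -0.93). The thinned share of cells with a Csf1r UMI was 65.0% in the class of 0 and 43.6% in the class of 3 or more. The class medians ran from 5303 to 8614 UMIs, so cells with more Ccr2 UMIs were also deeper.

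The GM-CSF receptor chains were also lower in the class of 3 or more than in the class of 0. Csf2ra read 125, 106, 85.2 and 99.98 CPM over the classes, a log2 ratio of -0.32 (-0.45 to -0.19) for the outer pair. Csf2rb read 182, 161, 164 and 137 CPM, a log2 ratio of -0.41 (-0.52 to -0.30). Csf2rb2 read 38.6, 26.8, 30.4 and 22.6 CPM, a log2 ratio of -0.74 (-1.04 to -0.51). All intervals of neighbouring classes overlapped for these 3 genes, those of the outer classes did not, and Csf2ra was lowest in the class of 2. Csf3r read 32.6, 39.9, 32.0 and 33.4 CPM, a log2 ratio of 0.03 (-0.21 to 0.28); its difference from Csf2ra was not tested, and their intervals overlap. At matched depth, in cells of 2000 to 4000 UMIs (101 against 483 cells), Csf1r was at -1.03 (-1.26 to -0.82). There Csf2ra turned to 0.017 (-0.65 to 0.64), Csf2rb was at -0.19 (-0.66 to 0.25) and Csf2rb2 at -0.34 (-1.55 to 0.69), so no direction was resolved for these 3. Classes formed on cells thinned to 2000 UMIs, 2 or more Ccr2 UMIs against 0, gave -0.35 (-0.53 to -0.19) for Csf2ra, -0.58 (-0.74 to -0.44) for Csf2rb and -0.63 (-1.01 to -0.32) for Csf2rb2.

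The lanes agreed on Csf1r and Csf2ra and less so on the β chains. The outer classes gave -0.99 in lane 1 and -0.96 in lane 2 for Csf1r, and -0.32 and -0.31 for Csf2ra. For Csf2rb they gave -0.51 and -0.14, and the lane 2 interval (-0.36 to 0.07) included 0. For Csf2rb2 they gave -0.90 and -0.39, with a lane 2 interval from -0.88 to 0.06. No member was past 2-fold, where 0.941% of 7016 genes were higher and 2.77% lower by that much, and the median of the members was -0.41 against -0.08 for all genes. Csf1r stood at percentile 2.84 of all genes.

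**Figure D2:**
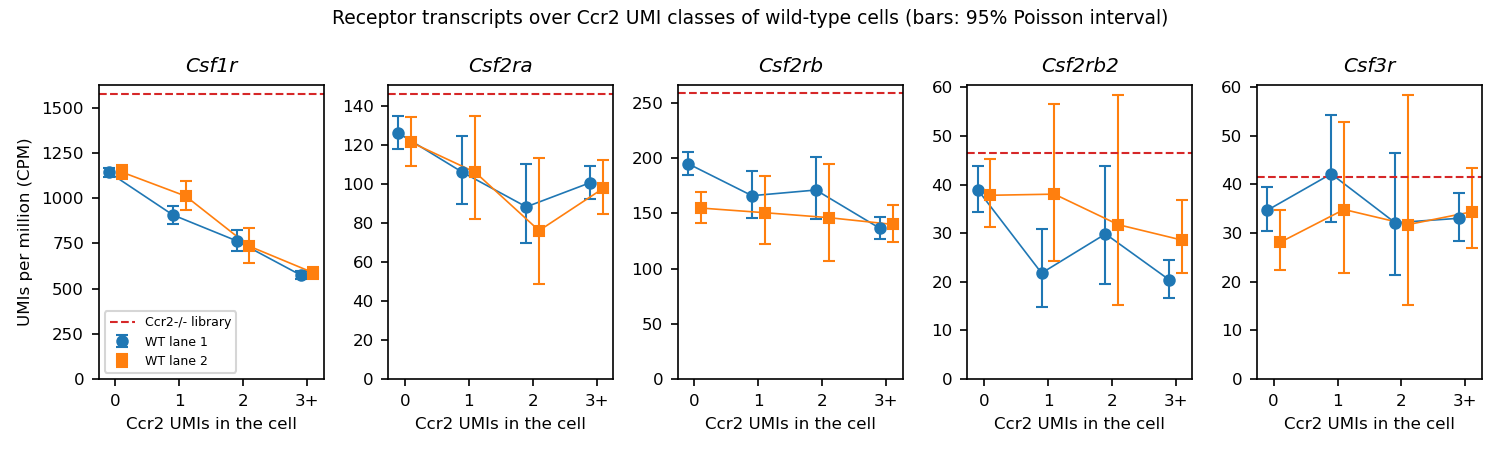
Level of each receptor gene in CPM (vertical axes from 0, a scale for each gene) against the number of Ccr2 UMIs in the cell, for WT lane 1 (circles) and lane 2 (squares) with 95% Poisson intervals; the dashed line is the level of the whole Ccr2-/- library. Csf1r steps down from 1142 to 575 in lane 1 and from 1144 to 587 in lane 2, all below the dashed line at 1576, and the Csf3r levels show no order over the classes.

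Markers of other cells moved along these classes. The summed monocyte markers (7 of 7 detected, Ccr2 among them) read 185, 386, 846 and 1601 CPM, and the macrophage markers 16972, 14659, 12535 and 12609 CPM. Dendritic cell markers stayed between 74.5 and 139 CPM. Summed neutrophil markers went from 526 to 160 CPM, but the sum was nearly all Mmp9, and S100a8, S100a9 and Ly6g had 0 UMIs in WT cells. The 2 plasma cell markers in the tables (Jchain and Mzb1, of 4 listed) read 2580, 3184, 446 and 180 CPM. Red cell markers (globins) read 1379 CPM in the class of 0 and 13.6, 12.6 and 11.6 CPM in the others, and epithelial markers 298, 332, 58.2 and 68.2 CPM. The part of these markers in the receptor levels was not tested. Within macrophage-like clusters alone the log2 ratio of the outer Ccr2 classes was -0.71 for Csf1r, -0.52 for Csf2ra and -0.58 for Csf2rb. These clusters leave out cluster 3, led by Ccr2, so their cells were selected in part on Ccr2.

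In both libraries cells with a Timd4 UMI carried more Csf1r. Unthinned, Timd4 was found in 14.8% of WT cells and 31.2% of Ccr2-/- cells, which were less deep. Over 0, 1 and 2 or more Timd4 UMIs, Csf1r read 836, 1152 and 1333 CPM in WT cells and 1448, 1744 and 1909 CPM in Ccr2-/- cells. In each library the 3 intervals did not overlap, and every Ccr2-/- class lay above every WT class. The log2 ratio of cells with a Timd4 UMI to cells without was 0.55 (0.50 to 0.60) in WT and 0.32 (0.26 to 0.37) in Ccr2-/- cells, and the lanes gave 0.55 and 0.56. Among WT cells without a Ccr2 UMI it was 0.29 (0.23 to 0.35), and within macrophage-like clusters 0.24 in WT and 0.19 in Ccr2-/- cells.

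Of the β chains, Csf2rb2 was higher with Timd4 in both libraries, from 28.9 to 43.5 CPM in WT (0.57, 0.31 to 0.86) and from 40.9 to 56.1 CPM in Ccr2-/- cells (0.45, 0.14 to 0.77). In cells of 2000 to 4000 UMIs its intervals included 0, at 0.73 (-0.24 to 1.64) in WT and 0.14 (-0.37 to 0.64) in Ccr2-/- cells. WT lane 2 alone gave 0.25 (-0.31 to 0.79). Classes on thinned cells gave 0.85 (0.34 to 1.35) in WT and 0.37 (-0.05 to 0.78) in Ccr2-/- cells. Csf2rb read 161 and 176 CPM in WT cells, a log2 ratio of 0.13 (-0.0025 to 0.26), and 229 and 311 CPM in Ccr2-/- cells, a log2 ratio of 0.44 (0.31 to 0.57). The WT value of Csf2rb depended on how the cells were classed, with 0.34 (0.080 to 0.59) for classes on thinned cells and 0.49 (0.062 to 0.90) in cells of 2000 to 4000 UMIs, and -0.0038 in lane 2 alone. In Ccr2-/- cells Csf2rb climbed over the 3 classes, with 229, 296 and 339 CPM. Csf2ra read 108 and 133 CPM in WT (0.31, 0.15 to 0.46) and 143 and 153 CPM in Ccr2-/- cells (0.10, -0.08 to 0.28). Csf3r read 33.8 and 32.4 CPM in WT (-0.06, -0.38 to 0.24) and 39.4 and 45.4 CPM in Ccr2-/- cells (0.20, -0.14 to 0.55). Whether these ratios differ between the libraries was not tested.

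Against these ratios, 0 of 5 members passed 2-fold in either library. In WT cells 0.691% of 7091 genes were higher by 2-fold or more with Timd4 and 0.663% lower, and in Ccr2-/- cells 0.0266% of 7529 genes were higher and 1.47% lower. Ratios of 2-fold were thus rare among all genes on this split, and the members' medians were 0.31 in WT and 0.32 in Ccr2-/- cells against 0.05 and -0.01 for all genes. Markers of other cells differed on this split too. Without and with a Timd4 UMI in WT, monocyte markers read 840 and 297 CPM, plasma cell markers 1900 and 227 CPM, red cell markers 786 and 13.3 CPM and epithelial markers 227 and 75.2 CPM. In Ccr2-/- cells red cell markers read 8955 and 3085 CPM, plasma cell markers 2615 and 295 CPM, fibroblast markers 343 and 30.2 CPM and epithelial markers 220 and 51.5 CPM. Their part was not tested.

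**Figure D3:**
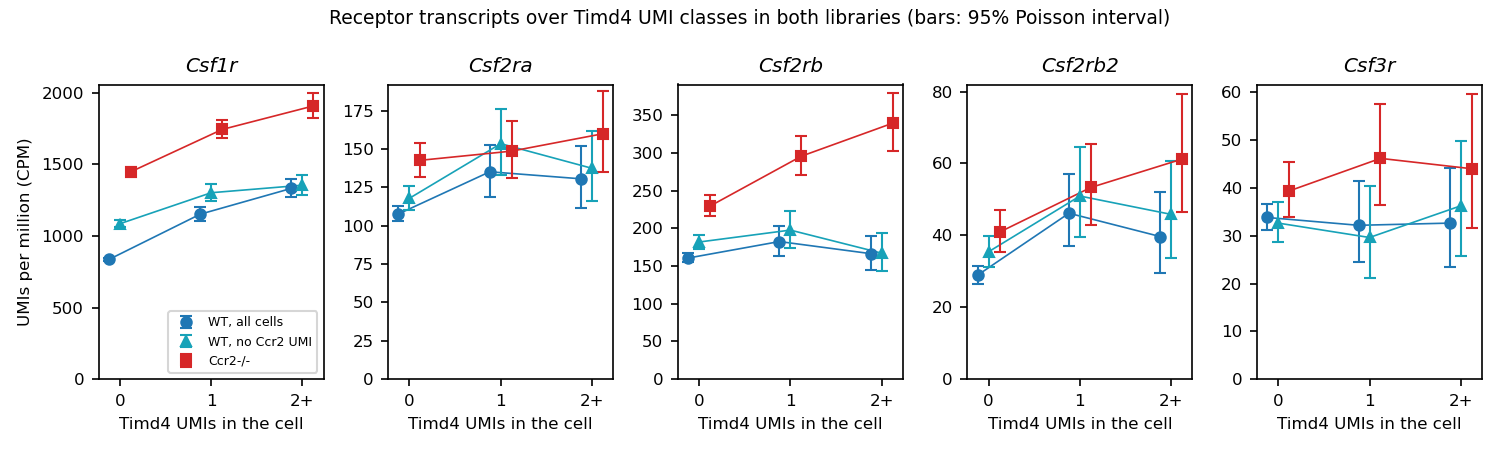
Level of each receptor gene in CPM (vertical axes from 0, a scale for each gene) against the number of Timd4 UMIs in the cell, for all WT cells (circles), WT cells without a Ccr2 UMI (triangles) and Ccr2-/- cells (squares), with 95% Poisson intervals. Csf1r climbs from 836 to 1333 in WT and from 1448 to 1909 in Ccr2-/- cells, and Csf2rb climbs in Ccr2-/- cells from 229 to 339.

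The Ccr2-/- library was also set against WT cells that had no Ccr2 UMI. All 5 ratios stayed above 0, with log2 values of 0.46 (0.43 to 0.50) for Csf1r, 0.23 for Csf2ra, 0.50 for Csf2rb, 0.26 for Csf2rb2 and 0.34 for Csf3r. Of all tested genes 61.0% had a ratio above 0, with a median of 0.16. The members stood at percentiles 72.0, 55.7, 74.6, 58.0 and 63.7 of these genes, in the same order. No member passed 2-fold, where 7.31% of 7426 genes were higher and 2.60% lower. The value for Csf1r was smaller than the 0.82 against all WT cells. When the cells were also matched on Timd4, Csf1r gave 0.42 in cells without and 0.44 in cells with a Timd4 UMI. Csf2rb gave 0.33 without and 0.75 (0.59 to 0.93) with a Timd4 UMI, and Csf2ra 0.27 and 0.06 (-0.15 to 0.27). No member passed 2-fold in these matched sets, where 8.02% of genes were higher and 2.56% lower without Timd4, and 7.68% were higher and 3.93% lower with it. All of these comparisons share WT cells with those above.

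Restricting both libraries to macrophage-like clusters gave Csf1r levels of 1128 CPM in WT and 1670 CPM in Ccr2-/- cells, a log2 ratio of 0.57 (0.53 to 0.60). Csf2ra was at 0.41, Csf2rb at 0.66 and Csf2rb2 at 0.48, and Csf3r at 0.18 with an interval from -0.04 to 0.41. In this comparison 6.42% of 7385 genes were higher by 2-fold and 2.98% lower, none of them a member. The macrophage-like class leaves out cluster 3, led by Ccr2, with 778 WT and 13 Ccr2-/- cells. Different clusters made up this class in the libraries, mainly clusters 1, 2 and 7 in Ccr2-/- cells and clusters 4, 5 and 6 in WT cells. Globin UMIs in it were at 13.4 CPM in WT and 688 CPM in Ccr2-/- cells, and fibroblast markers at 12.97 and 32.3 CPM. Cluster 1, led by Vwa1, Plaur and Thbs1, held 91 WT and 1085 Ccr2-/- cells, and its log2 ratio of Ccr2-/- to WT was 0.31 (0.19 to 0.44) for Csf1r and 0.54 (0.24 to 0.85) for Csf2rb. For the other members in cluster 1 the interval included 0. None of the 5 passed 2-fold there, where 5.65% of genes were higher and 4.09% lower. In cluster 10, whose leading genes Rsad2, Ifit1 and Ifit3 are induced by interferon, with 85 WT and 53 Ccr2-/- cells, 1 of 5 members passed 2-fold. This was Csf2ra, with 84.5 CPM in WT and 205 CPM in Ccr2-/- cells, a log2 ratio of 1.27 (0.60 to 1.93) that rests on 52 and 33 UMIs. Of all genes 17.1% were higher and 13.8% lower by 2-fold in that cluster, so the count is near the background.

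Clusters were formed without the 5 genes and Ccr2, and are ranked within each library, since the libraries differ in level and most clusters were mainly of 1 genotype. Among the 9 clusters with at least 50 WT cells, Csf1r varied 4.96-fold. Cluster 1 (Vwa1, Plaur) read 1598 CPM, then came cluster 5 (Npl, Ccl24) at 1518, cluster 6 (Hspa1b) at 1187 and cluster 8 (Reg3b) at 979 CPM. Below these stood cluster 10 (Rsad2, Ifit1) at 834, cluster 4 (Fcrls, Cbr2) at 825, cluster 11 (Top2a) at 618 and cluster 3 (Ccr2, Lyz1) at 613 CPM. Cluster 9, led by the monocyte markers Plac8, Lsp1 and S100a6, was last at 322 CPM (291 to 355). Of the 8 pairs of neighbours 3 had overlapping intervals, namely clusters 1 and 5, 10 and 4, and 11 and 3. Among the 5 clusters with at least 50 Ccr2-/- cells the order was cluster 1 at 1984 CPM, cluster 10 at 1527, cluster 2 (Ccl7, Ier3) at 1487, cluster 12 (Defa24) at 1273 and cluster 7 (Mt2) at 1030 CPM, and the interval of cluster 1 alone stood clear of its neighbour. Ccr2-/- cells of cluster 5 (2237 CPM, 26 cells) and cluster 8 (1991 CPM, 42 cells) were too few for this order and read above cluster 1, with intervals that overlapped its own.

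Some clusters were kept out of the macrophage-like class. Among their 10 leading genes clusters 8 and 9 had 4 markers each of other types, cluster 3 had 2 (Ccr2 and Lyz1) and cluster 12 had 1 (Defa24). None had a macrophage marker there, but neither did any macrophage-like cluster. With 2 smaller clusters, clusters 3, 8, 9 and 12 made up those called mixed, which held 35.6% of WT and 6.89% of Ccr2-/- cells. Ccr2 was among the naming markers, so comparisons within macrophage-like clusters were made on cells selected in part on Ccr2.

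The GM-CSF receptor chains had a narrower spread over the WT clusters. Csf2ra ran from 172 CPM in cluster 5 and 169 CPM in cluster 1 to 78.1 CPM in cluster 4, and all 8 neighbouring pairs overlapped. Csf2rb ran from 278 CPM in cluster 1 and 260 CPM in cluster 5 to 83.5 CPM in cluster 4 (74.7 to 93.1), and the intervals of clusters 1 and 5 lay above, and that of cluster 4 below, those of the other WT clusters. Cluster 9, lowest in Csf1r, held 148 CPM of Csf2rb (128 to 171), above cluster 4. In Ccr2-/- cells Csf2ra read 217 CPM in cluster 1 and 205 CPM in cluster 10, 105 CPM in cluster 2, 57.8 CPM in cluster 7 and 46.9 CPM in cluster 12. Csf2rb read 404, 310, 166, 65.2 and 93.7 CPM in the same clusters. In the 42 Ccr2-/- cells of cluster 8 it read 452 CPM (353 to 570). Over the 5 clusters with at least 50 Ccr2-/- cells the spread was wider for these chains than for Csf1r. It was 4.62-fold for Csf2ra, 6.20-fold for Csf2rb and 1.93-fold for Csf1r. For Csf2rb2 and Csf3r all neighbouring pairs overlapped in both libraries, so neighbours could not be ranked. Some clusters further apart in the order did not overlap. In Ccr2-/- cells the Csf2rb2 interval was 61.5 to 80.8 CPM in cluster 1 and 19.3 to 32.6 CPM in cluster 2. In WT cells it was 48.1 to 63.2 CPM in cluster 5 and 25.9 to 34.6 CPM in cluster 3. The Csf3r interval was 38.9 to 59.8 CPM in WT cluster 6 and 25.8 to 34.4 CPM in WT cluster 3. In Ccr2-/- cells cluster 10 overlapped all other ranked clusters for both genes.

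**Figure D4:**
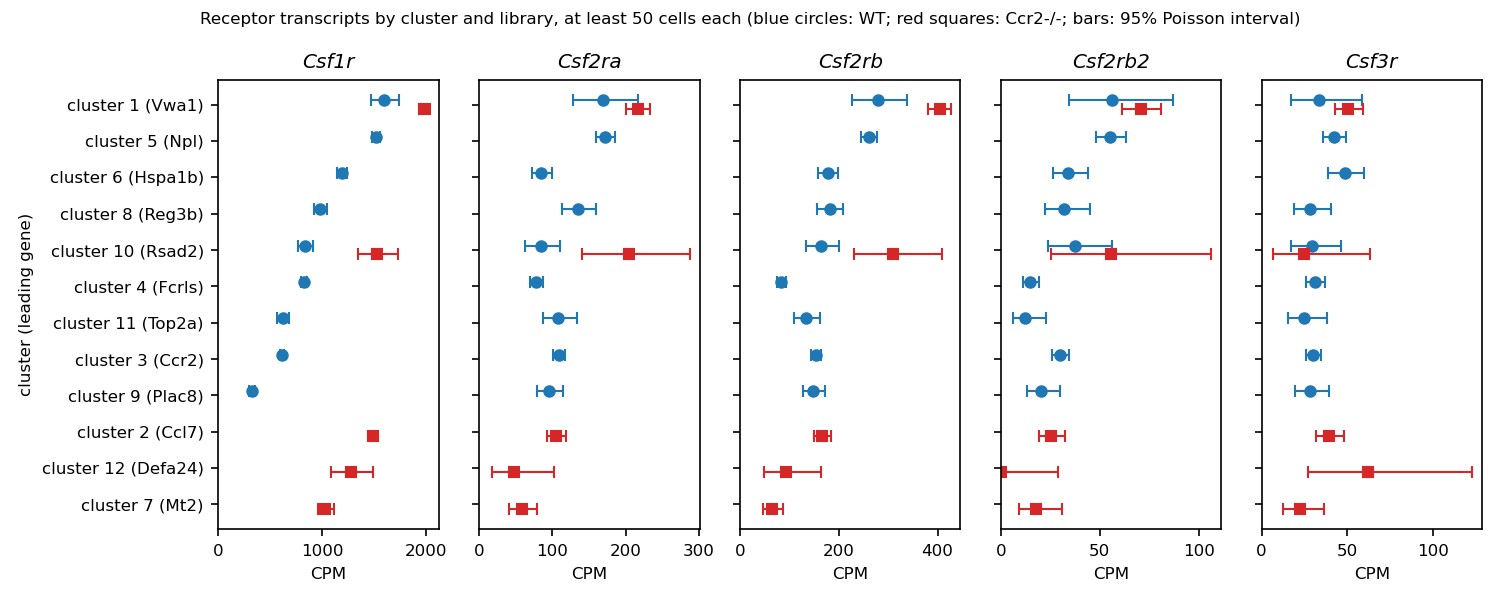
Level of each receptor gene in CPM (horizontal axes from 0, a scale for each gene) in clusters, named by their leading gene, for WT cells (blue circles) and Ccr2-/- cells (red squares) where the library has at least 50 cells in the cluster; bars are 95% Poisson intervals. Csf1r in WT falls from 1598 in cluster 1 to 322 in cluster 9, while Csf2rb in WT is lowest in cluster 4 at 83.5.

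Over the 9 WT clusters, as a description with no test, the log2 levels of Csf2ra and Csf2rb had a Pearson correlation of 0.81 and those of Csf2rb and Csf2rb2 of 0.88. Csf1r had correlations of 0.53 with Csf2ra and 0.59 with Csf2rb. The clusters share a library and differ in depth. The 36 cells of an unnamed cluster led by Jchain and Mzb1 had 321 CPM of Csf1r (261 to 390), while the 38 T cell- or ILC-like cells had 218 CPM. Reads of free RNA were not separated from these counts.

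Csf1r also differed between sets of cells defined by transcripts of other surface proteins. Cells with both Timd4 and Cd4, transcripts of the long-lived macrophage phenotype, read 1311 CPM of Csf1r in WT (280 cells) and 1913 CPM in Ccr2-/- cells (395 cells). Cells with Cd4 and no Timd4 read 1131 CPM (756 cells) and 1751 CPM (610 cells). WT cells with Ccr2 and Plac8, both monocyte transcripts, read 546 CPM (526 to 566, 545 cells). WT cells with Cd209a, a lectin of dendritic cells and some macrophages, read 775 CPM. Within each library the intervals of the Timd4 and Cd4 set lay above those of the set with Cd4 and no Timd4.

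Cells with Cd163, the haemoglobin scavenger receptor, separated Csf1r from the GM-CSF receptor. In WT they read 899 CPM of Csf1r, as the library did (895), but 74.2 CPM of Csf2ra (63.7 to 85.9) and 118 CPM of Csf2rb (105 to 133), below the library's 112 and 163 CPM. In Ccr2-/- cells they read 1493 CPM of Csf1r, 86.6 CPM of Csf2ra (73.0 to 102) and 150 CPM of Csf2rb (132 to 170), against 146 and 259 CPM in the library. In both libraries these intervals did not overlap those of the library for the GM-CSF receptor chains. The Cd163 cells are part of each library, so the difference from the other cells is larger than shown.

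Over all cells, the balance of the receptor chains was close in the libraries for the β genes and not for the α chain. Csf2rb2 gave 16.1% of the UMIs of both β genes in WT (14.9 to 17.2) and 15.2% in Ccr2-/- cells (13.7 to 16.8), and the WT lanes gave 15% and 18.8%. With a Timd4 UMI the share was 19.8% in WT against 15.3% without, and 15.3% against 15.1% in Ccr2-/- cells. There were 0.685 Csf2ra UMIs per Csf2rb UMI in WT (0.650 to 0.723) and 0.565 in Ccr2-/- cells (0.524 to 0.610). Among Ccr2-/- cells the ratio was 0.622 without and 0.491 with a Timd4 UMI. In cells of 2000 to 4000 UMIs, Csf2ra and Csf2rb had 176 and 364 UMIs in WT and 442 and 806 in Ccr2-/- cells. The ratio there was lower in WT, the reverse of the order over all cells, and this turn was not tested. At 1000 UMIs per cell, 1.33% of WT and 2.90% of Ccr2-/- cells held both Csf2ra and Csf2rb, where the product of the single shares is 1.46% and 2.52%. The product lay within the interval of the observed share in both libraries (0.949 to 1.80 and 2.27 to 3.65), so co-detection of this pair beyond it was not resolved at this depth. Csf2rb and Csf2rb2 were found together in 0.796% of WT cells (0.511 to 1.18) against a product of 0.500%, and in 1.28% of Ccr2-/- cells (0.873 to 1.82) against 0.888%. The WT interval lies above its product, by a narrow margin and from 24 cells, and the part of the sequence these genes share was not tested.

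The ligands of these receptors were almost absent from the sorted cells. Csf1 had 27 UMIs in WT and 25 in Ccr2-/- cells, Il34 had 1 and 7, and Csf2 had 0 and 2. Csf3 and Il3 had 0 UMIs in both libraries, and Il5 had 1 and 0. Il3ra, the IL-3 binding chain that pairs with both β chains, had 265 UMIs (12.8 CPM) in WT and 48 (6.61 CPM) in Ccr2-/- cells. Il5ra had none. The sort did not aim at stromal or lymphoid cells, so levels of these ligands in such cells were not measured.

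Genes of these pathways, from a list of 61 that includes the ligands, were mostly higher in Ccr2-/- cells. Of the 50 that passed the minimum of 10 CPM, 43 had a log2 ratio above 0, 11 were higher by 2-fold or more and 0 lower, and the median was 0.48. For comparison, 62.3% of all 7401 genes had a ratio above 0, 9.04% were higher by 2-fold and the median of all was 0.18. Among 20 kinases and adaptors, 2 were past 2-fold, Pik3r1, a regulatory subunit of PI3-kinase (1.58, from 103 to 310 CPM), and Src (1.14). Lyn, a Src-family kinase, was at 0.49. Tyrobp, the adaptor DAP12 that CSF1R signalling also uses, was at -0.81, from 2522 CPM in WT to 1438 CPM in Ccr2-/- cells, and was the member of this group with the lowest ratio.

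Among 13 transcription factors, 3 were past 2-fold, Fos (1.73, from 1853 to 6169 CPM), Cebpb (1.34) and Egr2 (1.30). Spi1, which encodes PU.1, the myeloid factor that drives Csf1r, was nearly level, with 385 CPM in WT and 369 CPM in Ccr2-/- cells (-0.06, -0.13 to 0.00). Irf8 and Runx1 were both at 0.58. Of the 9 measured genes that restrain the signal, Socs3 was past 2-fold (1.29), Cbl, the ubiquitin ligase for CSF1R, was at 0.71 and Slfn2 at -0.60. Adam17, the protease that sheds CSF1R from the cell surface, and its partner Rhbdf2 were at 0.66 and 0.54. Of 6 genes known as STAT5 targets 5 were past 2-fold, where 9.04% of all 7401 genes were higher by that much. These were Osm (1.70), Pim1 (1.61), Id2 (1.46), Bcl2l1 (1.17) and Ccnd2 (1.09), and Bcl2 was at 0.29. The count depended on the cells compared, as given below. The pathway lists were chosen with earlier results of these data known, so counts from them are a description and not a test. Activity of STAT5 was not measured.

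**Figure D5:**
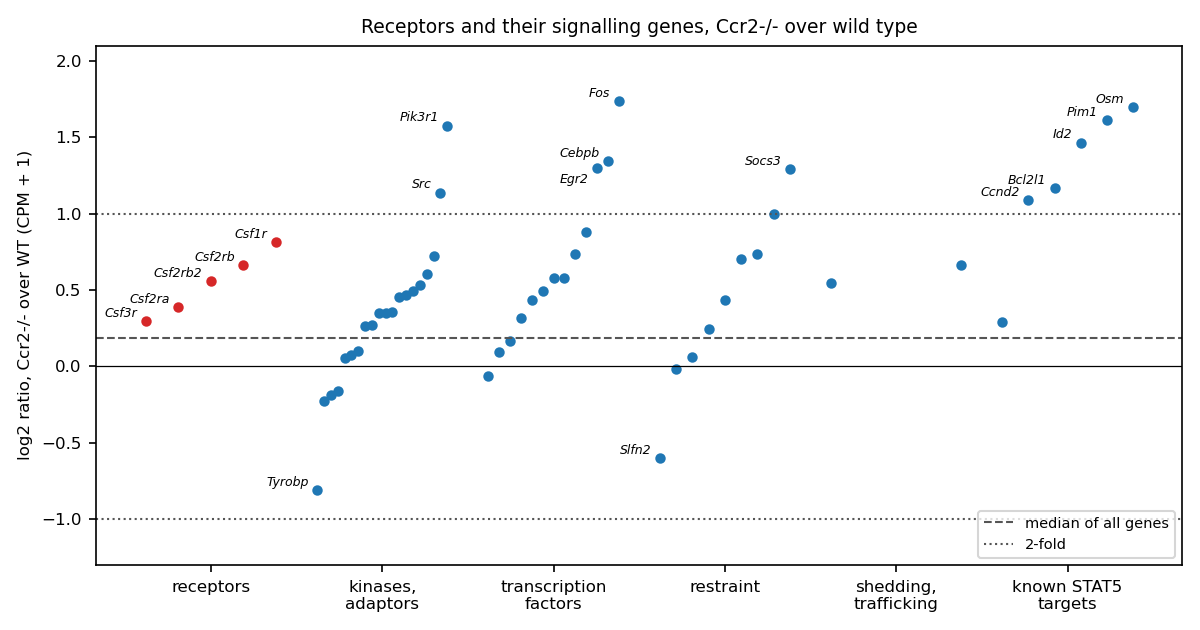
Log2 ratio of Ccr2-/- to WT, on log2(CPM + 1), for the 5 receptor genes (red) and the 50 measured signalling genes (blue), each column sorted; the dashed line is the median of all 7401 genes at 0.18 and the dotted lines mark 2-fold. All 5 receptors lie between 0.30 and 0.82, and 11 signalling genes lie above the upper dotted line, among them Fos, Osm and Pim1.

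Within a library few of these signalling genes passed 2-fold. Between WT cells with 3 or more and with 0 Ccr2 UMIs, 0 of 50 were higher by 2-fold and 1 lower, the cytokine signalling inhibitor Socs2 (-1.18), with a median of -0.08 as for all genes (0.941% of all genes higher and 2.77% lower). Src was at -0.97 and Mitf at -0.86, while Osm was at 0.80 and Socs3 at 0.89. With a Timd4 UMI 0 of 51 in WT and 0 of 50 in Ccr2-/- cells passed 2-fold, with medians of 0.09 and 0.10, where 0.691% and 0.0266% of all genes were higher.

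Between the genotypes the count depended on the cells compared. Against WT cells without a Ccr2 UMI 9 of 50 were higher by 2-fold and 0 lower, where 7.31% of all genes were higher, and in macrophage-like clusters 9 of 50 were higher, where 6.42% were. Within cluster 1, 1 of 51 was higher and 1 lower, against 5.65% and 4.09% of all genes, with a median of 0.07. Within cluster 10, of 53 Ccr2-/- cells, 15 of 49 were higher and 2 lower, against 17.1% and 13.8% of all genes. Of the 6 STAT5 targets, 4 were higher by 2-fold in macrophage-like clusters and 5 in cluster 10. In cluster 1 none of the 6 passed 2-fold, with 3 above 0, 3 below and a median of 0.05.

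Of the members 3 had an entry among RefSeq promoters, and these were searched because PU.1, whose gene is Spi1, is known to act at receptor promoters of this family. The 250 bases before the start site were searched for GAGGAA, the core of PU.1 sites, on both strands. It occurred in 23.3% of 32851 promoters, and in Csf2ra, Csf2rb2 and Csf3r. The 30 bases around the match are shown for each, 5′ to 3′ on the gene's strand with the match in capitals (TTCCTC where it lies on the opposite strand), at chr19:61228419-61228448 on the minus strand for Csf2ra, which has 2 adjoining matches, chr15:78305871-78305900 on the minus strand for Csf2rb2, and chr4:126024561-126024590 on the plus strand for Csf3r (GRCm38.p6):
Csf2ra: ttcccaacctgcagatGAGGAAGAGGAAgc
Csf2rb2: ctctgtgtctgcTTCCTCcagagaagtcag
Csf3r: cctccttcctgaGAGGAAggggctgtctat
The RefSeq starts of Csf2ra and Csf3r lie inside the GENCODE genes, so part of these windows is transcribed in GENCODE M21. A match is a description of letters and not a binding site.

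Genes whose levels were most like each member's were read from 10 sets of cells, split by lane, Ccr2 and Timd4 in WT and by Timd4 in Ccr2-/- cells, among 7201 genes. Correlations are of log2(CPM + 1) and are descriptions, as the sets share libraries and depth. Csf1r was nearest to Ermap (0.99), Adamdec1 (0.99), a metalloprotease of gut macrophages that ran from 99.2 to 1217 CPM, and Gas1 (0.98). Csf2ra was nearest to Adcy7, Slc11a1 and Pias4 (0.97 each). Csf2rb was nearest to Crtc3, Spty2d1 and Rgs1 (0.97 each), Csf2rb2 to Sc5d (0.97), Siglec1 (0.93) and Ctsf (0.92), and Csf3r to Pdlim5 (0.96), Nploc4 (0.94) and Fgfr1op (0.93). Among the members, Csf1r correlated with Csf2ra at 0.89, Csf2rb2 at 0.85, Csf2rb at 0.80 and Csf3r at 0.31.

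Depth within a library was read as well, since the libraries differ in it. In WT cells of 1000 to 2000, 2000 to 4000, 4000 to 8000 and at least 8000 UMIs, Csf1r read 1084, 1106, 1004 and 790 CPM. In Ccr2-/- cells it read 1614, 1710 and 1486 CPM in the first 3 bins, and 498 CPM in the 19 cells of the last. In each of the first 3 bins the Ccr2-/- level was above the WT level. Csf2ra in WT read 73.1, 83.3, 110 and 118 CPM over the bins and in Ccr2-/- cells 142, 146 and 152 CPM over the first 3. At 2000 to 4000 UMIs the log2 ratio of Ccr2-/- to WT was 0.63 for Csf1r and 0.80 for Csf2ra.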

How the data were processed

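The deposited matrices give raw UMI counts, as whole numbers, which the authors did not normalise. Cell Ranger 3.0.1 and the build mm10 are named in the submitters' processing notes, and whether counting used strand is not given in the sources used here. Counts were summed over sets of cells and scaled to 1000000 (CPM). Log2 ratios used a pseudocount of 1 CPM and their intervals used none. Counts of genes past 2-fold used genes with a mean of at least 10 CPM. Cells were kept with at least 200 genes and at most 10% mitochondrial UMIs. Scripts used Python 3.11.15, numpy 2.4.6, scipy 1.17.1 and scanpy 1.11.5, and were tested on simulated data. Cells of both libraries were clustered together (2000 variable genes, 30 components, 15 neighbours, Leiden resolution 0.8 with leidenalg 0.10.2), without the 5 receptor genes and Ccr2. Clusters were named from marker lists, Ccr2 among the monocyte markers, with thresholds set after the clusters had been seen. Doublets were left in, since Scrublet's own threshold marked 12 of 5628 cells. An alternative removed the 98 highest-scoring cells. Of the 27998 genes, 98.7% were found by identifier in GENCODE M21.

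The members, gene lists and splits were chosen with earlier results of these data known. Named genes are the 5 members, the pathway genes of highest level or past 2-fold by role, and the 3 genes most like each member. No comparison was tested, because each genotype had 1 library and lanes of 1 library are not replicates. The alternatives changed the scaling, pseudocount, cell filter, doublets, cell classes, depth, lane and thinning.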

Additional observations from a re-analysis of the deposited data

Results flagged for a closer look

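Csf3r was singled out because its log2 ratio of cells with a Timd4 UMI to cells without pointed in opposite directions in the libraries, at -0.061 (-0.38 to 0.24) in WT and 0.20 (-0.14 to 0.55) in Ccr2-/- cells. In cells of 2000 to 4000 UMIs the directions were the other way round, at 0.73 (-0.17 to 1.57) in WT and -0.018 (-0.52 to 0.47) in Ccr2-/- cells, and classes on thinned cells gave 0.14 (-0.51 to 0.73) and 0.48 (0.054 to 0.91), both above 0. Both reported intervals include 0, and the difference between the libraries was not tested.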

How the results depend on the processing

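No paired analysis was possible because each genotype had 1 library and the labels give no replicate numbers. Of 240 log2 ratios under alternatives, 191 stayed within the interval of the reported value and 48 moved outside it, and 1 whose reported interval left out 0 turned to the other sign. In 10 of the 240 the sign differed from the reported one, the other 9 where the reported interval included 0. The cause of these moves was not tested. For Ccr2-/- over WT, Csf1r was 0.78 and Csf2rb 0.79 against lane 2 alone, Csf1r 0.63 and Csf2ra 0.80 at 2000 to 4000 UMIs, and Csf1r 0.57 in macrophage-like clusters. The mean of each cell's CPM gave 0.73, 0.50 and 0.58 for Csf1r, Csf2ra and Csf2rb. Median-of-ratios size factors gave 0.62, 0.20, 0.47 and 0.37 for Csf1r, Csf2ra, Csf2rb and Csf2rb2. Totals without haemoglobin, ribosomal protein and mitochondrial genes, an alternative chosen after seeing the data, gave 0.71, 0.28 and 0.56 for Csf1r, Csf2ra and Csf2rb. For 3 or more Ccr2 UMIs over 0, Csf2ra changed sign to 0.017 at 2000 to 4000 UMIs, where Csf2rb was -0.19 and Csf2rb2 -0.34. Csf1r was -0.78 for 1 or more Ccr2 UMIs over 0, -1.04 by the mean of cells, -0.90 by size factors and -0.86 with the reduced totals, which put Csf2rb at -0.28. Classes formed after thinning gave Csf2rb -0.58. Lane 2 gave Csf2rb -0.14, Csf2rb2 -0.39 and Csf3r 0.28. Macrophage-like clusters gave -0.71, -0.52 and -0.58 for Csf1r, Csf2ra and Csf2rb. For Timd4 in WT, Csf1r was 0.67 for 2 or more UMIs, 0.24 in macrophage-like clusters, 0.50 by size factors and 0.48 with the reduced totals. Thinned classes gave 0.61, 0.48 and 0.34 for Csf1r, Csf2ra and Csf2rb. Lane 2 gave Csf2ra 0.55, Csf2rb -0.0038 and Csf2rb2 0.25. At 2000 to 4000 UMIs Csf2ra was 0.63, Csf2rb 0.49 and Csf3r 0.73. For Timd4 in Ccr2-/- cells, Csf1r was 0.40 for 2 or more UMIs, 0.23 in thinned classes (Csf2ra -0.16), 0.23 at 2000 to 4000 UMIs, 0.19 in macrophage-like clusters and 0.25 by the mean of cells.

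Shares of cells depend on depth by construction. Thinned to 500 UMIs they were 37.4%, 5.44%, 7.59%, 1.39% and 1.56% in WT and 51.6%, 7.62%, 10.8%, 1.72% and 2.22% in Ccr2-/- cells, for Csf1r, Csf2ra, Csf2rb, Csf2rb2 and Csf3r. Thinned to 2000 UMIs they were 76.8%, 18.2%, 26.2%, 6.83% and 7.18% in WT and 88.6%, 22.6%, 35.7%, 8.46% and 8.46% in Ccr2-/- cells. Unthinned they were 93.2%, 45.4%, 54.1%, 17.1% and 19.8% in WT and 88.9%, 29.0%, 38.2%, 10.5% and 10.5% in Ccr2-/- cells. In macrophage-like clusters Csf1r was in 64.6% of WT and 77.9% of Ccr2-/- cells and Csf2rb in 16.6% of WT cells. Counts of genes past 2-fold depended on the floor on low genes. Without a minimum the higher and lower counts were 1523 and 342 for Ccr2-/- over WT (669 and 231 as reported), 167 and 557 for the Ccr2 classes (66 and 194), 166 and 282 for Timd4 in WT (49 and 47) and 96 and 1098 for Timd4 in Ccr2-/- cells (2 and 111). With a pseudocount of 10 CPM they were 376 and 131, 36 and 109, 21 and 25, and 1 and 75.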

Other observations

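WT cells in the cluster led by Plac8, Lsp1 and S100a6 (139 cells) had 322 CPM of Csf1r (291 to 355), and WT cells of the unnamed cluster led by Jchain and Mzb1 (23 cells) had 351 CPM (281 to 433). The GM-CSF receptor chains separated these sets, with 95.7 and 32.3 CPM of Csf2ra and 148 and 64.5 CPM of Csf2rb. The interval of Csf2rb was 128 to 171 CPM in the first set and 36.9 to 105 CPM in the second.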
